A study of Mus musculus with 2 samples.

Results

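The conventional dendritic cells described here were 64 of the 15852 cell barcodes that passed filtering in single-cell RNA libraries from 2 groups of MC38 mouse tumours, 33 of 7900 in the SHP099 library and 31 of 7952 in the control library. They were selected on measured UMIs (unique molecular identifiers, each standing for 1 captured RNA molecule). Every member had at least 200 detected genes, at most 20% mitochondrial UMIs, at least 0.5% of its UMIs from the MHC class II genes H2-Aa, H2-Ab1, H2-Eb1 and Cd74, and at least 2 UMIs over Flt3, Zbtb46, Cd209a, Xcr1, Clec9a and Ccl17. Barcodes with more than 2 C1q UMIs, which mark macrophages, more than 1 UMI of the T cell receptor complex genes Cd3d, Cd3e and Cd3g, or more than 1 UMI of the tumour genes Igf2bp2, Igf2bp3 and Hmga2 were left out. Because these values chose the members, the level of those genes in the members is a description and not a finding.

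Conventional dendritic cells take up antigen in tissues, carry it to lymph nodes and present it to T cells. The cDC1 subset, marked here by the chemokine receptor Xcr1 and the dead-cell receptor Clec9a, is known for presenting captured antigen on MHC class I to CD8 T cells, and the cDC2 subset, marked here by the lectin Cd209a, for presenting on MHC class II to CD4 T cells. Either subset can mature, a change in which the cell gains the lymph node homing receptor Ccr7, the actin-bundling protein Fscn1, the chemokines Ccl17 and Ccl22 and costimulatory ligands.

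The SHP099 group was C57BL/6 mice carrying MC38 tumours, grown from a colon carcinoma line placed in the right flank, and given SHP099 hydrochloride, an inhibitor of the phosphatase SHP2, at 5 mg/kg by the intragastric route every day for 14 days. The control group carried the same tumours and received PBS, although one label calls it untreated. Treatment started on day 5 at an average tumour size of 100 mm3, and each group held 6 mice. There was 1 library of dissociated whole tumour for each group, so that no comparison between the groups has a replicate and none was tested, and how many mice went into a library was not given in the sources used here. Intervals below are 95% intervals that cover counting error only.

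The SHP099 library held 112901642 UMIs in 8263 barcodes and the control library 126218180 UMIs in 8245 barcodes. The members took 200323 of these UMIs in the SHP099 library and 136143 in the control library. A member had a median of 3851 UMIs and 1342 genes in SHP099 tumours, against 3552 UMIs and 1273 genes in control tumours, and a median of 2.15% and 2.37% mitochondrial UMIs. The libraries shared 100 barcodes, of which 0 belonged to members.

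One SHP099 member stood apart. It held 45043 UMIs, or 22.5% of all UMIs of the SHP099 members, against 11540 in the next deepest, and it was the 1 member that Scrublet, a program that scores barcodes holding more than 1 cell, called a doublet. It carried Cst3 with 241 UMIs and Cd74 with 192, but also the collagen Col3a1 with 46, Tm4sf1 with 52, the chemokine Ccl2 with 78 and the mitosis gene Top2a with 20. The main results it touches are given with all 33 members and with the 32 others, which held 155280 UMIs. Some ratios over the members are given only with the doublet included.

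The markers fixed for the cell type were present but sparse, as counts of this depth allow. Cd209a was detected in 13 of 33 SHP099 members and 11 of 31 control members, Clec9a in 10 and 7, Flt3, the growth factor receptor that dendritic cells depend on, in 8 and 6, Xcr1 in 7 and 4, and the transcription factor Zbtb46 in 4 and 3. Ccl17 alone carried 6 SHP099 cells and 10 control cells past the limit on dendritic genes, and Cd209a alone carried 9 and 5. Just inside that limit, with exactly 2 UMIs, lay 7 SHP099 members and 3 control members, and just outside it, with 1 UMI, 12 SHP099 barcodes and 15 control barcodes.

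Genes that the selection did not name also set the members apart from the 15788 other passing barcodes, again as a description, because cells grouped by expression differ in expression. Cst3, a protease inhibitor high in dendritic cells, was detected in all 64 members and made up 18421 of every 1000000 UMIs there (CPM), against 784 CPM in the other barcodes. Naaa, a lysosomal amidase, had 481 CPM against 15.1, Plbd1 535 against 19.8, the maturation marker Cd83 574 against 17.8, and Cytip, which regulates adhesion, 532 against 19.8. The remaining leading genes outside the rule were Ccl22, Cd24a, Ccr7, Plet1, Serpinb6b, Pkib, Crip1 and Napsa.

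Markers of other cells were mostly low but not all absent, and some monocyte genes were higher. Of 8 B cell markers, 7 were at 0 in SHP099 members and 8 in control members. Of 7 endothelial markers, 7 and 5 were at 0. The plasmacytoid dendritic cell marker Siglech was at 0 in both libraries. All 10 markers of that cell type together gave 113 UMIs in 28 SHP099 members and 64 UMIs in 25 control members. The 12 macrophage markers, which include the C1q genes of the selection, gave 95 UMIs in 29 and 61 UMIs in 26. The 8 tumour markers gave 75 UMIs in 15 SHP099 members, 54 of them in 1 cell, and 25 UMIs in 17 control members. The 10 monocyte markers summed to 0 to 137 UMIs in a SHP099 member, with a median of 15, and to 0 to 58 in a control member, with a median of 18. Within that list the monocyte chitinase-like gene Chil3 was at 0 in every member, Plac8 was detected in 26 of 33 SHP099 and 22 of 31 control members, and Ly6c2 in 12 and 13. Ly6c2 reached 398 CPM over all members, against 3560 CPM in 659 monocytes of the same libraries. Those monocytes were chosen by at least 5 UMIs over Ly6c2, Chil3 and Plac8 and at least 5 Lyz2 UMIs. They also had at most 1 UMI over the dendritic genes of the selection. Their Ly6c2 level is therefore partly set by that choice, and the contrast is a description. The part of monocyte-like cells in the results was not tested.

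The share of dendritic cells was 0.418% of passing barcodes in SHP099 tumours (exact binomial interval 0.288 to 0.586%) and 0.390% in control tumours (0.265 to 0.553%), a ratio of 1.07 with a counting interval of 0.657 to 1.75. A difference of this size was not detectable with 64 cells. In the same libraries C1q phagocytes, barcodes with at least 10 C1q UMIs, were 28.2% of SHP099 and 25.3% of control barcodes. Monocytes were 3.73% and 4.58%, and T cells 4.71% and 6.28%.

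Members were then divided by UMIs into subsets. A mature cell had at least 3 UMIs over Ccr7, Fscn1 and Ccl22. Of the rest, a cDC1 had at least 2 UMIs over Xcr1 and Clec9a and more of these than of Cd209a, and a cDC2 had at least 2 Cd209a UMIs. No member held both Xcr1 and Cd209a, and 1 control member held Clec9a with Cd209a. The cDC1 were 7 of 33 SHP099 members and 4 of 31 control members, the cDC2 12 and 9, mature cells 6 and 12, and 8 and 6 stayed unassigned. Of the unassigned cells, 4 in each library held at least 2 Ccl17 UMIs.

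**Figure D1:**
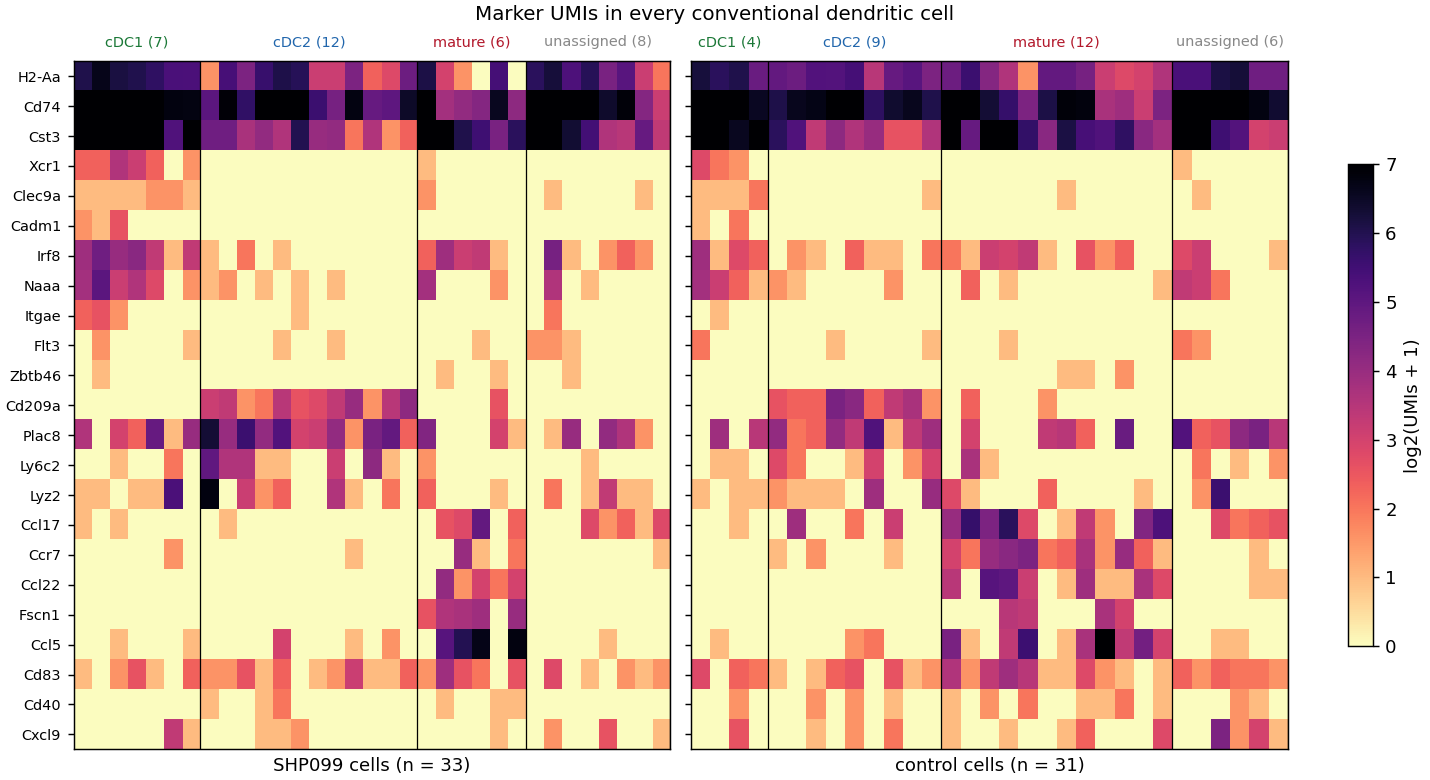
UMIs of 23 genes (rows) in each of the 33 SHP099 members (left) and 31 control members (right), coloured as log2(UMIs + 1) and ordered by subset and then by depth. Xcr1 and Cd209a mark separate cells, and Ccl17, Ccr7 and Ccl22 fill more columns in the control library.

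The subsets carried further genes known for them. Of the 14 detected cDC1 markers outside the dividing rule, 12 were highest in the cDC1, among them Irf8 and Cadm1. Cadm1, an adhesion molecule, gave 12 UMIs in 5 of the 11 cDC1 and 0 UMIs in the 53 other members. Btla, an inhibitory receptor, gave 21 UMIs in 9 cDC1 and 3 UMIs elsewhere, and Cd36, a scavenger receptor, 13 UMIs in 8 cDC1 and 1 UMI elsewhere. Dnase1l3, an extracellular nuclease, had 9 UMIs in 6 cDC1 and 0 elsewhere.

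The cDC2 were less distinct. Of 13 detected cDC2 markers outside the rule, 5 were highest in the cDC2, Cd209d, Cd7, Clec10a, Itgam and Mgl2. Among their leading genes was Ccr2, the receptor for Ccl2, with 32 UMIs in 14 of 21 cDC2 and 7 UMIs in 5 other members. Ccr2 is also a monocyte gene. One SHP099 cDC2 held 110 of the 202 Lyz2 UMIs of all SHP099 members.

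In mature cells 17 of the 19 maturation markers that played no part in the division were at their highest. Cacnb3, a calcium channel subunit, gave 29 UMIs in 11 of 18 mature cells and 0 elsewhere, and Socs2, a cytokine signalling inhibitor, 28 UMIs against 1 in the other members. Anxa3 had 26 UMIs against 1, and Cd200, a ligand that restrains myeloid cells, 23 against 1. The chemokine Ccl5 gave 588 UMIs in 14 mature cells, against 21 UMIs in 11 other members.

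Mature cells were 18.2% of SHP099 members (6.98 to 35.5%) and 38.7% of control members (21.9 to 57.8%), which is 0.470 times as large (counting interval 0.201 to 1.10). The doublet was 1 of the 6 SHP099 mature cells, on 5 Fscn1 UMIs with 0 UMIs of Ccr7, Ccl22 or Ccl17. Without it the ratio was 0.404. Most of the mature cells of both libraries passed the selection only through their Ccl17 UMIs, so this share is not independent of it. The cDC1 share was 21.2% in SHP099 tumours and 12.9% in control tumours, or 1.64 times as large (0.533 to 5.07), and the cDC2 share 36.4% and 29.0%, or 1.25 times as large (0.615 to 2.55). All of these intervals include 1.

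**Figure D2:**
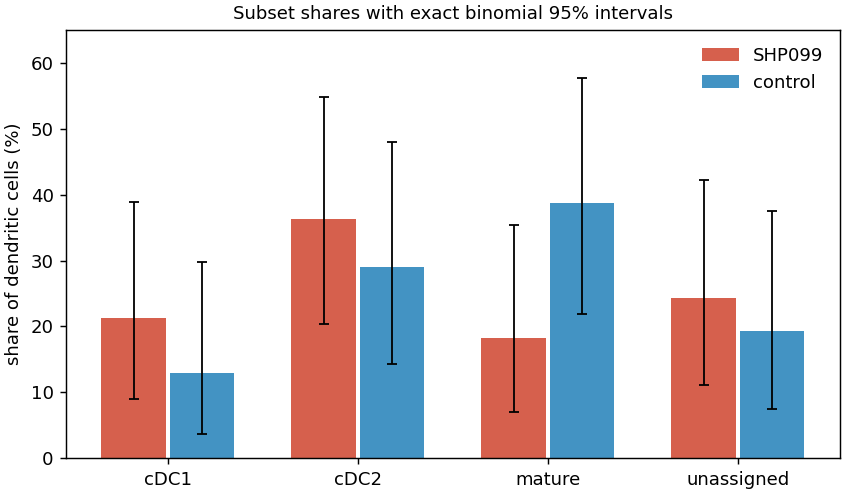
Share of dendritic cells (%) in each subset in SHP099 (red, left bar, 33 cells) and control tumours (blue, right bar, 31 cells), with exact binomial 95% intervals that cover counting error only. The mature share was 18.2% in SHP099 tumours and 38.7% in control tumours, and the intervals overlap in every subset.

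Mature cells varied among themselves, and they are described here by whether Fscn1 was detected, a division made after the values were seen. The 4 SHP099 mature cells with Fscn1 UMIs, leaving out the doublet, had 0.514 to 0.563% of UMIs from MHC class II genes, just above the selection limit, and 34 to 109 Ccl5 UMIs. The 4 control mature cells with Fscn1 UMIs had 0.552 to 1.41% MHC class II and 9 to 150 Ccl5 UMIs. Mature cells without a Fscn1 UMI numbered 1 in the SHP099 library and 8 in the control library. The single SHP099 cell had 6.42% MHC class II UMIs with 3 Ccl22 UMIs, 0 Ccr7 and 0 Ccl17 UMIs. The 8 control cells had a median of 4.01% MHC class II, from 0.873 to 6.64%, and held 154 Ccl17, 77 Ccl22 and 49 Ccr7 UMIs among them, with 0 to 24 Ccl5 UMIs each. Leaving out the doublet, the Fscn1-bearing cells were equal in number in the 2 libraries, and the further mature cells of the control library had no Fscn1 UMI.

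**Figure D3:**
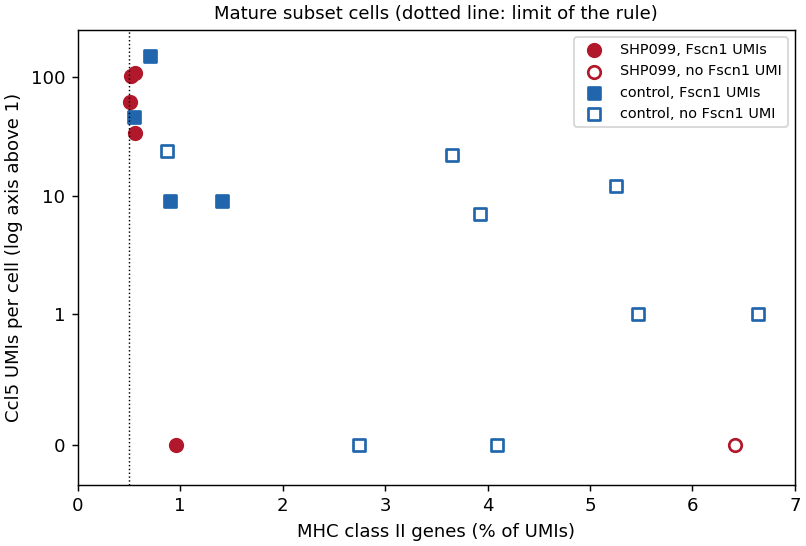
Each mature cell by its share of UMIs from MHC class II genes (x axis, %) and its Ccl5 UMIs (y axis, log scale above 1), with SHP099 cells as circles and control cells as squares, filled where Fscn1 was detected. The dotted line is the 0.5% limit of the selection, 8 control cells but 1 SHP099 cell are open symbols, and the filled circle at 0 Ccl5 UMIs is the doublet.

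The limit on MHC class II cut through this group. Among barcodes that met every other condition and failed only this limit, 10 in the SHP099 library and 7 in the control library, 1 and 2 had UMIs of Ccr7, Fscn1 and Ccl22 together. A further 6 SHP099 barcodes and 1 control barcode had at least 3 Fscn1 UMIs without Ccr7 or Ccl22. Fscn1 was not particular to dendritic cells in these tumours: 3756 SHP099 and 3887 control barcodes outside the members had it.

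Ccr7 and Ccl22, which the selection did not name, were among the maturation genes with the lowest ratios. Ccl17 was also lower in SHP099 members, but it is a gene of the selection and its level there is partly set by it. The levels of Ccr7 and Ccl22 are not independent of the selection either. Without their Ccl17 UMIs, 9 SHP099 and 12 control members would have failed it. These included the member with the most Ccl22 UMIs in each library, 16 in SHP099 and 34 in control. Ccl17 and Ccl22 are chemokines that bind the receptor Ccr4 of regulatory and other T cells, and their genes lie close together on chromosome 8. Ccl17 (94810453 to 94812036, plus strand, GRCm38) and Ccl22 (94745590 to 94751699, plus strand) are protein-coding. The 250 bases before the RefSeq start of each (GRCm38.p6) are printed because both genes were lower together, beside those of Cxcl9 (chromosome 5, 92321347 to 92328079, minus strand), an interferon-gamma-induced chemokine that was also lower. The windows are chr8:94810203-94810452 on the plus strand, chr8:94745434-94745683 on the plus strand and chr5:92328080-92328329 on the minus strand. The Ccl22 window takes in the first bases of the gene as GENCODE M21 draws it.
Ccl17: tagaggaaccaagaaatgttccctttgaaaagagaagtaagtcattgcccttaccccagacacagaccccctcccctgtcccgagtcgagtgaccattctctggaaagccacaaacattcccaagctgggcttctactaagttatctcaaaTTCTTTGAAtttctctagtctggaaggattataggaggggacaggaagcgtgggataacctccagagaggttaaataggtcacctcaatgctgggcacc
Ccl22: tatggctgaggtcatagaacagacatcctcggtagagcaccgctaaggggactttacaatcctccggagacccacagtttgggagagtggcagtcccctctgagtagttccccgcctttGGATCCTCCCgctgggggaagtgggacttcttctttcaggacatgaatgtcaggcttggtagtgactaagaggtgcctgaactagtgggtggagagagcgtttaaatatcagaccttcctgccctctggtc
Cxcl9: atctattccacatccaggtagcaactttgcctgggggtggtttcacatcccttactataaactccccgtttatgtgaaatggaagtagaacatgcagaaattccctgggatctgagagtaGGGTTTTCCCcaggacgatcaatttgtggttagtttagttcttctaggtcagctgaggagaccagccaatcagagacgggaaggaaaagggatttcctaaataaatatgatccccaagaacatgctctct

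Capitals mark matches to 2 motifs searched on both strands, GGGANNNNCC, a loose form of the sites that NF-kB factors bind, and TTCNNNGAA, a loose form of those that STAT factors bind. In Ccl17 the match to TTCNNNGAA lay 99 to 91 bases before the start, in Ccl22 a match to GGGANNNNCC lay 131 to 122 bases before it, and in Cxcl9 a match to GGGANNNNCC lay 130 to 121 bases before it. Over all 32851 such windows, 17.6% held GGGANNNNCC and 7.02% held TTCNNNGAA. A match is a string of letters and does not show that a factor binds there.

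Ccl17 had 0 to 29 UMIs per SHP099 member, with a median of 0, and 0 to 57 per control member, with a median of 2. The sums were 66 UMIs in 12 of 33 SHP099 members and 263 UMIs in 18 of 31 control members, so that single cells of both libraries overlapped while the sums were far apart. The log2 ratio, SHP099 over control with 0.5 CPM added to each side, was -2.55, and -2.18 without the doublet, given as a description. With every cell thinned to 2000 UMIs, which left out 2 SHP099 and 1 control members, Ccl17 was detected in 25.8% of SHP099 and 50% of control members, against 36.4% and 58.1% at full depth. In T cells, which should lack it, the thinned shares were 0.481% and 0%, where 0 of 339 cells, at a floor of 3 counts, allows a share of up to 0.885%. T cells were barcodes with at least 2 UMIs over Cd3d, Cd3e and Cd3g and at most 1 over the selection's dendritic genes, Ccl17 included. The low shares in T cells are therefore partly set by that choice.

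Ccl22 had 35 UMIs in 5 SHP099 members, the highest with 16, and 120 UMIs in 12 control members, the highest with 34, a log2 ratio of -2.33 (-2.92 to -1.78) and -1.96 without the doublet. Ccr7 (chromosome 11, 99144196 to 99155077, minus strand) had 23 UMIs in 6 SHP099 members, 15 of them in 1 cell, and 110 UMIs in 16 control members, the highest with 21. Its log2 ratio was -2.81 (-3.53 to -2.16), or -2.44 without the doublet. Fscn1, by contrast, had 57 UMIs in 5 SHP099 members and 38 UMIs in 4 control members. Its log2 ratio was 0.03 (-0.59 to 0.66), 0.26 (-0.37 to 0.91) without the doublet and -0.49 with the MHC class II limit at 0.1%. Cells with all of Ccr7, Fscn1 and Ccl22 numbered 3 and 4.

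**Figure D4:**
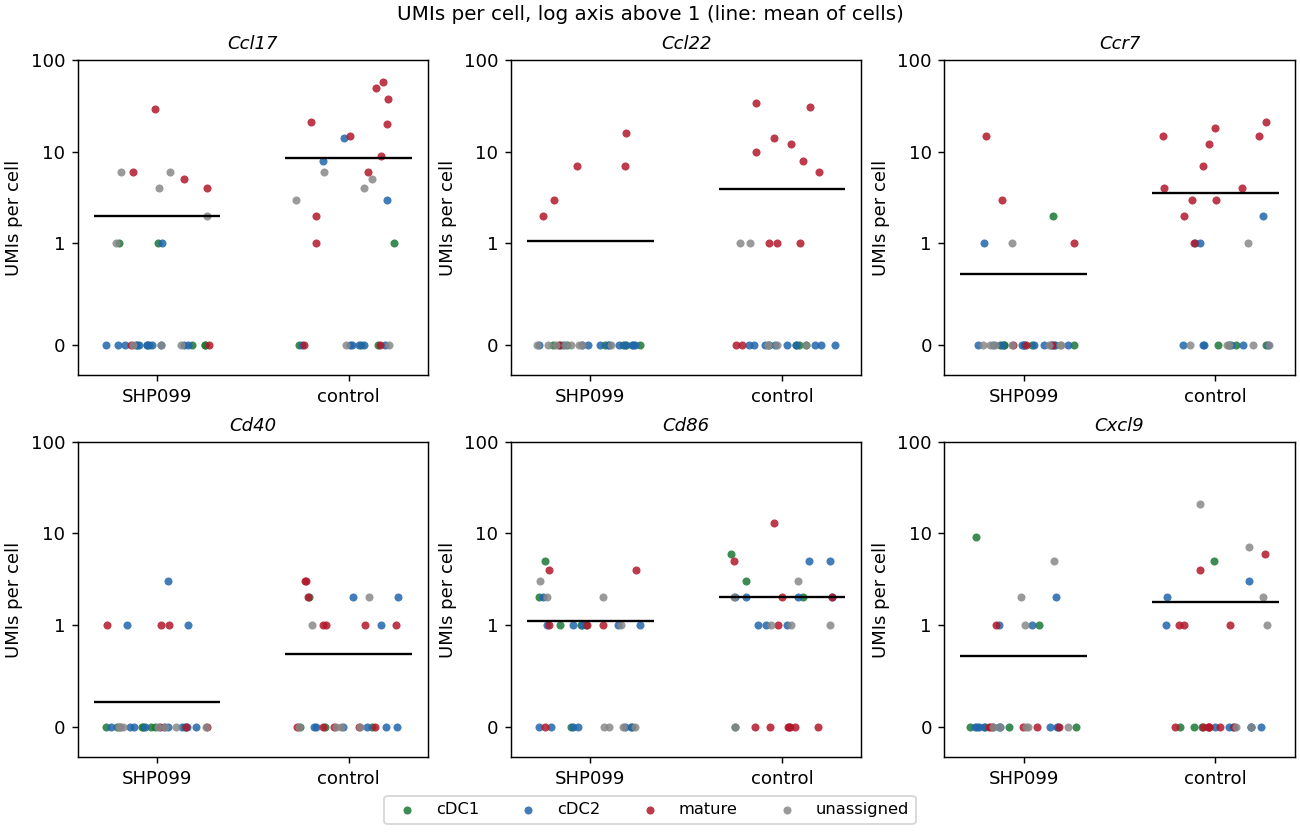
UMIs per cell (y axis, log scale above 1) of 6 genes in SHP099 members (left, 33 cells) and control members (right, 31 cells), each point a cell coloured by subset, with a line at the mean over cells. For Ccl17 the means were 2.00 and 8.48 UMIs, and the upper points of the control library are mostly mature cells.

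Since Ccl17 helped to choose the members and Ccr7 and Ccl22 defined the mature subset, the same genes were counted over all passing barcodes without the selection. Ccl17 gave 150 UMIs in 39 SHP099 barcodes and 398 UMIs in 51 control barcodes, a log2 ratio per UMI of -1.24 (-1.53 to -0.97). Ccl22 gave 92 and 225 UMIs, a log2 ratio of -1.13 (-1.49 to -0.77). Ccr7, which T cells also carry, gave 243 and 383 UMIs, a log2 ratio of -0.49 (-0.73 to -0.26). Barcodes with both Ccr7 and Ccl22 numbered 11 in the SHP099 library and 26 in the control library, a ratio of 0.426 with a counting interval of 0.211 to 0.861. Those with both Ccl17 and Ccl22 numbered 9 and 16, a ratio of 0.566 (0.250 to 1.28). Those with both Ccr7 and Fscn1 numbered 21 and 29, a ratio of 0.729 (0.416 to 1.28). The size of the difference thus depended on which pair of genes was counted. Members made up 3 and 11 of the Ccr7 and Ccl22 barcodes and 4 and 11 of the Ccl17 and Ccl22 barcodes. Of the Ccr7 and Fscn1 barcodes, 3 and 4 were members. Whether the other barcodes were mature dendritic cells was not tested. Xcr1 was detected in 21 SHP099 and 20 control barcodes, with 52 and 35 UMIs, a log2 ratio per UMI of 0.73 (0.09 to 1.40).

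Over all genes, 2853 reached 50 CPM in at least 1 library of members. Of these 572 (20%) were at least 1.5-fold higher and 676 (23.7%) at least 1.5-fold lower in SHP099 members, with a median log2 ratio of -0.06. The middle gene had a counting interval of 1.19 log2 units to either side, and 240 genes that were higher and 297 that were lower, by any fold, had an interval that left out a ratio of 1. In the far larger C1q phagocyte set 3.42% of genes were higher and 1.77% lower, and in monocytes 5.37% and 3.26%. Counts within a gene list are therefore read against 20% and 23.7%.

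By the fixed rule, the 10 genes lowest in SHP099 members relative to control were Iigp1, Ccr7, Ccl17, Cacnb3, Cmtm6, Ccl22, Fmnl1, Pmvk, Rnf115 and Ptger4, of which Ccl17 was used by the selection. Iigp1, an interferon-induced GTPase that acts on pathogen vacuoles, had 4 UMIs in 3 SHP099 members and 25 UMIs in 10 control members, a log2 ratio of -3.17 (-5.18 to -1.67), while its log2 ratio was 0.03 in C1q phagocytes and -0.03 in monocytes. Cacnb3 had 6 and 23 UMIs, and Ptger4, the prostaglandin E2 receptor EP4, 6 UMIs in 5 SHP099 members and 19 UMIs in 14 control members, a log2 ratio of -2.20. Cmtm6, which protects PD-L1 from degradation, had 5 UMIs in 5 SHP099 and 18 UMIs in 12 control members, a log2 ratio of -2.38 (-4.19 to -0.92). Fmnl1, an actin-nucleating formin, Pmvk, an enzyme of the mevalonate pathway, and Rnf115, a ubiquitin ligase, had 5 or 6 UMIs in SHP099 members and 16 to 19 in control members. The 9 besides Ccl17 kept a negative log2 ratio whose interval left out 0 without the doublet, from -3.22 for Iigp1 to -1.84 for Rnf115 and Ptger4.

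The 10 highest genes were Ccl2, Ccl7, Ube2c, Fn1, Col3a1, Gusb, Tm4sf1, Ccl4, Uchl3 and Scaf11, and several rested on the doublet. Col3a1 and Tm4sf1 turned round without it, to log2 ratios of -0.19 and -1.18. Ccl2, a chemokine that attracts monocytes, had 88 UMIs in 7 SHP099 members and 2 UMIs in 2 control members, a log2 ratio of 4.86, but 78 of the UMIs were in the doublet, and without them it was 2.10 (-0.10 to 5.36). Its relative Ccl7 dropped likewise to 0.79 (-1.99 to 4.28). Ube2c, which acts in mitosis, had a log2 ratio of 2.80, or 2.00 (0.58 to 3.76) without the doublet, but 0.18 among members with 0 C1q UMIs. Fn1, fibronectin, had 2.47, or 1.70 (0.07 to 3.77) without the doublet, but 0.14 with the MHC class II limit at 0.1%. Uchl3 and Scaf11 had intervals that took in 0 without the doublet.

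Ccl4 and Gusb did not rest on it. Ccl4, an inflammatory chemokine, had 75 UMIs in 14 of 33 SHP099 members, none in the doublet, and 14 UMIs in 5 of 31 control members, a log2 ratio of 1.86 (1.03 to 2.80) and 2.23 without the doublet. Its sums leaned on single cells, as 1 cell held 50.7% of the SHP099 UMIs and 1 cell 64.3% of the control UMIs. The log2 ratio of Ccl4 was 0.76 in C1q phagocytes and -0.35 in monocytes. Thinned to 2000 UMIs, 29.0% of SHP099 and 10.0% of control members had a Ccl4 UMI, but so did 31.7% and 21.2% of T cells, which express it. Among the members with 0 C1q UMIs the log2 ratio of Ccl4 was 0.40. Gusb, a lysosomal glucuronidase, had 23 UMIs in 15 SHP099 members and 4 UMIs in 4 control members, a log2 ratio of 1.95 (0.42 to 3.96) with the doublet and 2.04 (0.47 to 4.07) without.

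Genes of maturation formed the list with the lowest median among those described. Ccl17, which cells gain as they mature, let most of the mature cells of both libraries past the selection, so this list is not independent of it. Of 17 measured members 15 were at least 1.5-fold lower in SHP099 members and 0 were higher, against 23.7% and 20% of all genes, and the median log2 ratio was -1.24, or -0.91 with 13 lower without the doublet. The same list had medians of 0.02 in C1q phagocytes and -0.27 in monocytes, from 5 and 7 measured members. Besides Ccr7 and Cacnb3, Gadd45b, a stress response gene, had 19 UMIs in SHP099 and 56 in control members, and Marcksl1, an actin-binding protein, 43 and 100. Fscn1 and Relb, an NF-kB subunit with 21 and 20 UMIs, were the highest of the list, at 0.03 and -0.48. Fewer mature cells and lower levels per cell cannot be told apart in these sums. Over the 27 SHP099 and 19 control members outside the mature subset, where the division itself leaves at most 2 UMIs of Ccr7, Fscn1 and Ccl22 per cell, 12 maturation genes were measured. Their median was -1.31, with 8 lower and 1 higher, against a median of 0.00067 over all 2915 genes measured in these cells. The shares of 23.7% and 20% were taken over all members and are not the background of this smaller set. The medians there were -0.37 for costimulation, -0.26 for inhibitory and regulatory genes, -0.84 for interferon-gamma genes and -0.69 for NF-kB genes.

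Of 8 measured costimulatory genes 7 were lower and 0 higher, with a median of -0.98, or -0.64 with 5 lower without the doublet. Cd40, the receptor through which helper T cells license dendritic cells, had 8 UMIs in 6 SHP099 members and 22 UMIs in 13 control members, a log2 ratio of -2.0 (-3.39 to -0.79) and -1.64 (-3.03 to -0.43) without the doublet. Cd86, a ligand of Cd28, had 0 to 5 UMIs with a median of 1 in SHP099 members and 0 to 13 with a median of 1 in control members. Its sums were 36 and 63 UMIs, a log2 ratio of -1.36 (-2.0 to -0.75) and -1.0 (-1.63 to -0.38) without the doublet. Within the cDC2, Cd86 was detected in 6 of 12 SHP099 cells with 7 UMIs and in 9 of 9 control cells with 21 UMIs. Summed over the cDC2, the monocyte genes Plac8, Ly6c2 and Ccr2 were at 6660, 1903 and 523 CPM in the SHP099 library and at 3715, 886 and 341 CPM in the control library. The myeloid gene Lyz2 had 139 UMIs in 7 of the 12 SHP099 cDC2 and 34 UMIs in 6 of the 9 control cDC2, or 3306 and 1159 CPM. The part of these genes in the Cd86 values was not tested. Cd80 had 8 and 10 UMIs, and Cd48 had 30 and 20, a log2 ratio of 0.03.

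Inhibitory and regulatory genes lay on the same side. Of 13 measured, 8 were lower and 0 higher, with a median of -0.96, or -0.60 with 7 lower without the doublet. Cd274, which encodes PD-L1, had 21 and 29 UMIs, a log2 ratio of -1.02 (-1.91 to -0.16) and -0.72 (-1.62 to 0.15) without the doublet. Its log2 ratios in C1q phagocytes and monocytes were -0.82 and -0.68. Pdcd1lg2, which encodes PD-L2, had 6 UMIs in 3 SHP099 members and 13 in 8 control members, and Cd200 had 7 and 17.

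Genes that respond to interferon-gamma were lower as a list, while those of type I interferon were not. Of 13 measured interferon-gamma genes 10 were lower and 0 higher, with a median of -1.02, or -0.77 with 9 lower without the doublet. The list had medians of -0.14 in C1q phagocytes and -0.31 in monocytes. Cxcl9, a ligand of Cxcr3 on activated T cells, had 0 to 9 UMIs per SHP099 member and 0 to 21 per control member, in 9 and 13 cells, with sums of 23 and 55 UMIs. Its log2 ratio was -1.81 (-2.58 to -1.09), or -1.44 (-2.22 to -0.72) without the doublet, and it was also negative in C1q phagocytes, at -0.95, and in monocytes, at -0.61. In control members 31 of the 55 Cxcl9 UMIs were in the 6 unassigned cells. Cxcl10, which shares that receptor, had 53 and 89 UMIs, a log2 ratio of -1.30 (-1.82 to -0.80) and -0.99 without the doublet, against 0.38 in C1q phagocytes and 0.56 in monocytes. Tgtp1, an interferon-induced GTPase, had 1 and 8 UMIs, and Irf1, a transcription factor, 20 and 29, while Socs1 and Ciita, the regulator of MHC class II transcription, were nearest to 0, at -0.18 and -0.11. Of 17 promoter windows found for 15 of the 25 genes on this list, 9 held TTCNNNGAA, against 7.02% of all windows, and 3 held GGGANNNNCC, against 17.6%. The maturation list had 22 windows for 17 of its 22 genes, of which 8, or 36.4%, held GGGANNNNCC and 0 held TTCNNNGAA.

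The type I interferon list had a median of -0.05 over 29 measured genes, with 6 higher and 8 lower, and 0.29 over 30 genes with 10 higher and 2 lower without the doublet. In C1q phagocytes and monocytes of the same libraries its median was 0.55 and 0.52. Usp18, a protease that removes Isg15 from proteins, was its highest member, with 27 and 6 UMIs and a log2 ratio of 1.60. Zbp1, a sensor of nucleic acids, was the lowest, with 24 and 35 UMIs and a ratio of -1.10. Irf7 had 71 and 35 UMIs, a ratio of 0.46 (-0.14 to 1.09) that was 0.77 (0.16 to 1.40) without the doublet. Isg15 had 74 and 72, a ratio of -0.52 (-1.01 to -0.03) that was -0.15 (-0.64 to 0.34) without it, and Ifit1 had 8 and 9. The difference between cell sets was not tested.

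**Figure D5:**
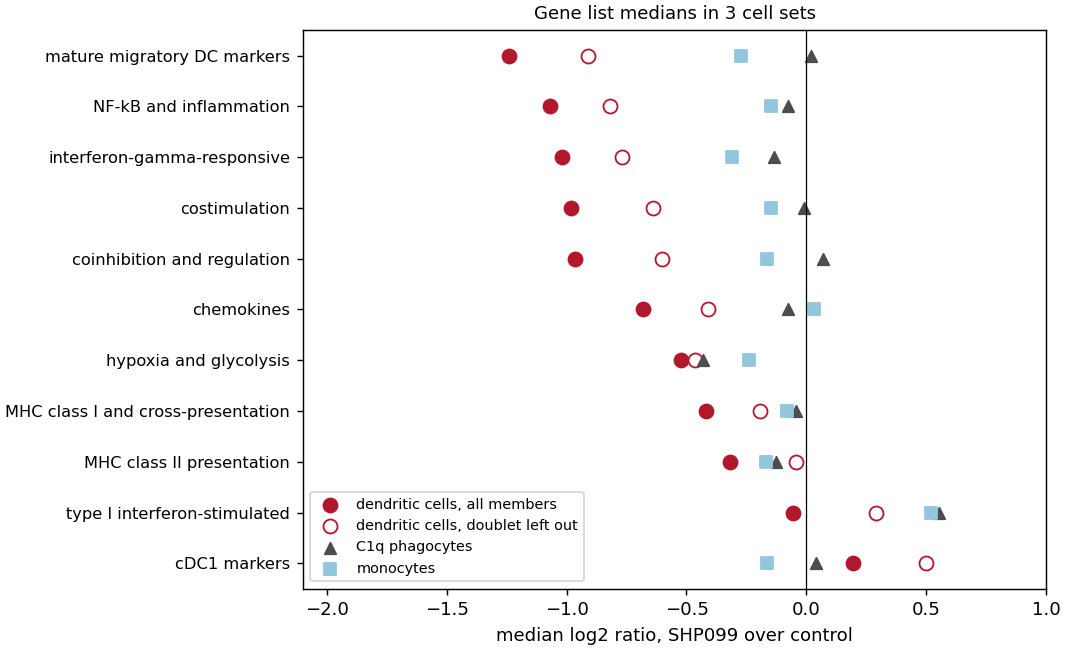
Median log2 ratio, SHP099 over control (x axis), of 11 gene lists in dendritic cells with all members (filled circles) and without the doublet (open circles), in C1q phagocytes (triangles) and in monocytes (squares). The maturation list lay at -1.24, or -0.91 without the doublet, against 0.02 in C1q phagocytes and -0.27 in monocytes.

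NF-kB and inflammatory genes were mostly lower, with 14 of 20 measured lower, 3 higher and a median of -1.07, or -0.82 without the doublet. Il1b, a cytokine, was detected in 18 of 33 SHP099 members with 116 UMIs and in 28 of 31 control members with 187 UMIs, a log2 ratio of -1.25 (-1.59 to -0.90) and -0.88 (-1.23 to -0.54) without the doublet. After thinning to 2000 UMIs it was detected in 48.4% of SHP099 and 80.0% of control members. In C1q phagocytes its log2 ratio was 0.18 and in monocytes 0.10. Nfkb1, an NF-kB subunit, had 13 and 32 UMIs, and Tnfaip3, an inhibitor of the pathway, 7 and 16. Ccl4, counted above, and Ptgs2, the prostaglandin synthase, were on the other side, Ptgs2 with 13 UMIs in SHP099 members and 0 in control members.

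Genes of antigen presentation had medians nearer to 0. The 14 measured MHC class II presentation genes, a list that includes genes of the selection, had a median of -0.32, with 2 higher and 1 lower, and -0.04 without the doublet. H2-Ab1 had 1391 and 1001 UMIs, a log2 ratio of -0.08 that turned to 0.16 (0.04 to 0.28) without the doublet. Cd74 had 3484 and 3112, a ratio of -0.39 that was -0.11 without the doublet. The 19 MHC class I and cross-presentation genes had a median of -0.42 with 6 lower and 0 higher, or -0.19 with 3 lower without it. B2m, the light chain of MHC class I, was at -0.44 and -0.21. Tapbpl, with 3 and 9 UMIs, and Tap1, a peptide transporter, with 22 and 31, were the lowest, and the chaperones Calr and Pdia3 the highest, at 0.41 and 0.35.

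The cDC1 list, which includes Xcr1 and Clec9a of the selection, had a median near 0. Of 13 measured markers 4 were higher and 3 lower, with a median of 0.20, or 0.50 with 7 of 15 higher and 0 lower without the doublet, and -0.05 with subsets weighted alike. Itgae, the integrin CD103, had 15 UMIs in 5 SHP099 members and 1 UMI in 1 control member, and Gcsam 14 and 3 UMIs. Xcr1 had 34 UMIs in 7 SHP099 members and 12 UMIs in 4 control members. Its log2 ratio of 0.94, or 1.26 without the doublet, is given as a description. Irf8, the transcription factor that cDC1 depend on, had 164 and 92 UMIs, a ratio of 0.28 (-0.10 to 0.66) that was 0.61 (0.23 to 0.99) without the doublet. Batf3, another factor of this lineage, had 18 UMIs in each library. The cDC2 list, which includes Cd209a of the selection, had 7 measured genes and a median of -0.51, or -0.17 without the doublet and 0.05 with each cell counted alike. Clec10a, a lectin, was its lowest with 16 and 26 UMIs, and Mgl2, a related lectin, its highest with 14 and 7.

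Genes of mitosis gave a median of 1.24 over 15 measured members, with 11 higher. Without the doublet 8 were measured and the median was -0.14. Mki67, a proliferation gene, was detected in 2 SHP099 members and 1 control member. The hypoxia and glycolysis list had a median of -0.52 over 18 genes, with 8 lower and 0 higher, and -0.47 without the doublet. In C1q phagocytes it was -0.43 and in monocytes -0.24. Bnip3, a hypoxia-induced mitophagy gene, was its lowest with 7 and 20 UMIs.

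The target of the inhibitor and its pathway were barely within reach. Ptpn11, which encodes SHP2, had 7 UMIs in 4 SHP099 members and 4 UMIs in 4 control members. Without the doublet it had 3 UMIs in 3 SHP099 members, and its log2 ratio went from 0.25 to -0.59 (-3.38 to 1.96). Of the 26 genes of the SHP2 and ERK feedback list 9 were measured, 5 lower and 0 higher, with a median of -0.78, or -0.56 without the doublet. Etv3, a transcriptional repressor of the ETS family, had 23 and 56 UMIs, a log2 ratio of -1.84, and Dusp5, a phosphatase that acts on ERK, 35 and 41. Dusp6 had 1 UMI in each library and Spry2 had 0, where the floor of 3 counts is the limit in either. The list of immediate-early and tissue dissociation genes was near 0, at 0.10, with 4 higher and 2 lower of 22, and -0.11 over genes with any UMI. Hspa1a, a heat shock chaperone, had 32 and 8 UMIs, and Ier5 39 and 73.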

How the data were processed

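Gene counts per barcode (UMIs) were used as the authors deposited them, not normalized; the deposited values are whole-number counts from Cell Ranger, aligned to mm10 (GRCm38), per the submitters' processing notes, and the file headers give matrix format 3.1.0. Left out were 103 SHP099 and 99 control barcodes with under 200 genes, and 260 and 194 with over 20% mitochondrial UMIs. UMIs were summed over members per library and divided by the summed total (CPM). Log2 ratios add 0.5 CPM to each side. Genes at 50 CPM or more in 1 library counted as measured, and 1.5-fold as a difference in size, with no test, since each group has 1 library. Intervals are exact Poisson, binomial (Clopper-Pearson) or conditional binomial at 95%, and ratios of shares have log-normal counting intervals. The limit given for a count of 0 is a floor of 3 counts. The interval code was tested on simulated data.

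The named genes are the 10 highest and 10 lowest log2 ratios among genes that reached 100 CPM in a library, were detected in 15% or more of its cells, had an interval leaving out a ratio of 1 and kept their sign with equal weight per cell, which 98 higher and 234 lower genes met. They are joined by a panel, the 8 leading genes per subset, the 15 over other barcodes, and the 2 highest and 2 lowest of each list. Some items that the rule names are not reported here. Other genes named in the lists were picked after their values were seen. Members, lists and rules were chosen with earlier results of these data known. The selection removes no doublets. Scrublet, run per library in scanpy 1.11.5, called 211 SHP099 and 263 control barcodes, 2.67% and 3.31%, under the expected 6.32% and 6.36%. Thinning used a single seeded draw. Python 3.11.15, numpy 2.4.6 and scipy 1.17.1 were used. Gene positions are from GENCODE M21. Alternatives changed the selection limits, the weighting of cells and subsets, the scaling, the prior, the level filter and the fold.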

Additional observations from a re-analysis of the deposited data

How the results depend on the processing

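The ratio of dendritic cell shares stayed between 0.926 and 1.10 under the alternatives tried, and that of mature shares between 0.404 and 0.490. Counts of genes higher and lower followed the filter: 210 and 334 at 100 CPM, 3767 and 2384 with any UMI, and 302 and 348 at 2-fold.

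The maturation median was -0.75 with each cell counted alike, -0.91 without the doublet, -0.86 with 3 or more dendritic marker UMIs, -1.01 without the deepest 5% of members and -0.81 with 0 C1q UMIs. Costimulation gave -0.62 with cells alike, -0.64 without the doublet, -0.37 without mature cells and -0.40 with 0 C1q UMIs, where interferon-gamma gave -0.40. Type I interferon gave 0.17 with cells alike, 0.11 at 100 CPM, 0.29 without the doublet, 0.23 without mature cells, 0.27 with 0 C1q UMIs and 0.22 at an MHC class II limit of 0.1%, which was chosen after seeing the data. MHC class II gave -0.040 with cells alike, -0.042 without the doublet, -0.26 recentred on the median gene, -0.24 with subsets weighted alike, -0.13 without mature cells, -0.068 without the deepest, 0.035 with 0 C1q UMIs and -0.19 at 0.1%. Mitosis gave 0.62 at 100 CPM, 2.60 without the deepest, and turned to -0.14 without the doublet, -0.44 without mature cells and -1.06 with 0 C1q UMIs.

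Other medians also changed sign: chemokines without mature cells (0.12), the SHP2 and ERK list with any UMI (0.16), cDC1 markers with subsets weighted alike (-0.048), cDC2 markers with cells alike (0.053) and 0 C1q UMIs (0.11), uptake receptors with cells alike (0.21), without the doublet (0.071) and with 0 C1q UMIs (0.33), dendritic lineage genes without mature cells (0.047), and immediate-early genes at 100 CPM (-0.033) and with any UMI (-0.11). Col3a1 gave -0.19 without the doublet, -0.17 without mature cells and -0.30 with 0 C1q UMIs. Tm4sf1 gave -1.18, -0.98 and -1.96 under the same 3 settings and -1.30 without the deepest. Ccl5 gave 0.12 without mature cells, 0.88 with 3 or more dendritic marker UMIs and 0.074 with 0 C1q UMIs, where H2-Aa gave 0.10 and Cd74 0.040. Fscn1 gave -0.49 and Ifit1 1.12 at an MHC class II limit of 0.1%. With cells alike Ifit1 gave 0.14 and Cd209a 0.28, and Cd209a gave 0.042 without the doublet and 0.11 with 0 C1q UMIs. Ube2c, Uchl3 and Ccl4 gave 0.18, 0.18 and 0.40 with 0 C1q UMIs, and Fn1 0.14 at the 0.1% limit. Causes other than the doublet were not tested. With 64 cells and 1 library a group, depth limits every gene below about 50 CPM. No paired analysis was possible because each group has 1 library.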

Other observations

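Some gene groups not described above held single large differences. Among receptors for chemokines and migration, with 9 measured genes and a median log2 ratio of -0.14, 4 were higher and 4 lower in SHP099 members. Cxcr4, a receptor that retains cells in tissue, had 9 UMIs in SHP099 and 14 in control members. Among uptake receptors, Axl, which binds dying cells, had 26 and 6 UMIs, a log2 ratio of 1.55, and Cd36 had 12 and 2, while the Fc receptor Fcgr3 had 11 and 18. The dendritic lineage list gave Jaml, an adhesion molecule, 31 and 10 UMIs and Nr4a3, a factor linked to dendritic cell migration, 17 and 39, a log2 ratio of -1.75. Il12b, a subunit of the cytokine IL-12, had 16 UMIs in 3 SHP099 members and 6 UMIs in 1 control member, and Il15 had 8 and 1.

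Dendritic transcripts were not limited to the members. Outside them, Ccl17 had 84 UMIs in 27 SHP099 barcodes and 135 UMIs in 33 control barcodes, and Ccl22 had 57 UMIs in 20 and 105 UMIs in 41. Lifting the C1q limit would add 8 SHP099 and 12 control barcodes, with median depths of 6728 and 5911 UMIs.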
